A study of Mus musculus with 6 samples.

Results

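The Egr and Nr4a genes are immediate-early transcription factors, and all 7 mouse genes of both families (Egr1, Egr2, Egr3, Egr4, Nr4a1, Nr4a2 and Nr4a3) were picked by name from the 49315 genes counted in cerebral cortex. Libraries came from wild type mice that had received, by retro-orbital injection at 21 days of age, an AAV-PHP.eB vector with GFP and an shRNA under a Gfap promoter, which is most active in astrocytes. The shRNA was either a scrambled sequence (AAV-PHP.eB-Gfap-GFP-shScr, shScr below, 3 libraries) or one against Fabp7 (AAV-PHP.eB-Gfap-GFP-shFABP7, shFabp7 below, 3 libraries). From 4 months of age both groups had lipopolysaccharide (LPS, a bacterial endotoxin) at 1 mg/kg in 3 weekly injections, and cortex was harvested 24 h after the last one. No group without LPS was analysed here, so every value below is a level under LPS or a difference between the shRNAs under LPS. The series asks how FABP7 bears on the astrocyte response to endotoxemia. The labels do not say whether each library is a separate mouse, and the p-values therefore cover only how these libraries vary, part of which may be technical. Libraries of 1 group differed by more than counting noise (chi-square per degree of freedom of 5.84 to 18.4 over the 6 pairs), and each group held both a male and a female expression pattern.

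Immediate-early genes are transcribed within minutes of a stimulus, without new protein synthesis, because the factors that switch them on (CREB at cAMP response elements, serum response factor at CArG boxes) are already in the cell. EGR proteins bind GC-rich DNA through zinc fingers and are restrained by the NAB corepressors, while NR4A proteins are orphan nuclear receptors that act without a known activating hormone, as monomers, dimers or partners of RXR. In the brain both families are best known from neurons, where synaptic activity induces them, and several are also induced in glia and in immune cells. Egr2 is also the regulator of peripheral myelination, and Nr4a2 is needed for midbrain dopamine neurons and marks claustrum and deep-layer neurons of the cortex.

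The promoter windows are shown because the members shared an inducible class but not a common difference between the groups. RefSeq windows (GRCm38.p6, 250 bases before to 50 after a start site) were matched for 5 of the 7 members, with 5 windows for Egr2 and 1 for each of the others. Capitals mark CArG boxes and half-sites of the cAMP response element (TGACG, or CGTCA on the other strand), and for Egr2 the third of its windows is printed.
Egr2 (chr10:67537619-67537918, plus strand): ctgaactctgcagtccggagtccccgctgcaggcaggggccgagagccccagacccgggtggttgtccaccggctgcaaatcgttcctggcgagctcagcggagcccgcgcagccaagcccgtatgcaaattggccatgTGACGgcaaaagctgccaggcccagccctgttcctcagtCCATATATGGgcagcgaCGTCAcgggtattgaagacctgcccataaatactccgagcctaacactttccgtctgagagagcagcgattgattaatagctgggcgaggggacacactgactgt
Egr4 (chr6:85513540-85513839, minus strand): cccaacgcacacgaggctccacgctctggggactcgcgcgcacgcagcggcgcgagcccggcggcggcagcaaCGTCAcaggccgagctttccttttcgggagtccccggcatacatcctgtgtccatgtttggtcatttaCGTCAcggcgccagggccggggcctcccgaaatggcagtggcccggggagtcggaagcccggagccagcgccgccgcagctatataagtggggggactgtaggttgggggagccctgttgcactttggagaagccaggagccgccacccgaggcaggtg
Nr4a1 (chr15:101266596-101266895, plus strand): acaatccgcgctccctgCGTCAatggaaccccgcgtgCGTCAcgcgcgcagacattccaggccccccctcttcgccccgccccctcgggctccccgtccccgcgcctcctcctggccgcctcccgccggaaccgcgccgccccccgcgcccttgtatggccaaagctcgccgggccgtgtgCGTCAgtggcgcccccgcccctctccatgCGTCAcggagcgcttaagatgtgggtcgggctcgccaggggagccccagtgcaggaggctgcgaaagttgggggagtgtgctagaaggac
Nr4a2 (chr2:57123954-57124253, minus strand): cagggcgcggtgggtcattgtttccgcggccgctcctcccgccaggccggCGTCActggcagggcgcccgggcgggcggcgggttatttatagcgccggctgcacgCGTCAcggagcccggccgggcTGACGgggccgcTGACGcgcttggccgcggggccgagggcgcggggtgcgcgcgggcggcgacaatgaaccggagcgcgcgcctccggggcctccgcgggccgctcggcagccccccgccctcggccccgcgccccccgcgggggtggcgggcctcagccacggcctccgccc
Nr4a3 (chr4:48045055-48045354, plus strand): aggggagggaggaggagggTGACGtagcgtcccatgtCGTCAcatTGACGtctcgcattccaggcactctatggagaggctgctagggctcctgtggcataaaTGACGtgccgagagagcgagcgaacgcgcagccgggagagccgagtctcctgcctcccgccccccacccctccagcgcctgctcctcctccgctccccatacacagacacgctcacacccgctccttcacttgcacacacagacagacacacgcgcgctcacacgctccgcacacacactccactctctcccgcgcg

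The windows of Nr4a1, Nr4a2 and Nr4a3 each held 4 half-sites of the cAMP response element. Of 32817 windows of the same length in the table, 1.03% held 3 or more half-sites and 20.8% held any. The windows of Egr4 and Egr2 as printed held 2 half-sites each. Among the members searched, which leaves out Egr1 and Egr3, Egr2 was the one with a CArG box. In the printed window the box (CCATATATGG) ran from base -72 to base -63 before the start site, and the motif was in 1.63% of all windows. Another Egr2 window, with its start site at 67537566, held a different box (CCTTTTTTGG) and 0 half-sites. The Egr2 window that starts farthest upstream (67535249) held none of these motifs, so the matches depend on the start site. The full 8-base element TGACGTCA, in 1.79% of all windows, was in none of the member windows used. An EGR site (GCGTGGGCG or GCGGGGGCG, on either strand, in 3.47% of all windows) was matched in Nr4a1, from base -60 to base -52, and the NR4A monomer site AAAGGTCA (1.51% of all windows, both strands) in none. A full element would count as overlapping half-sites, and a match is a run of letters only.

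**Figure D1:**
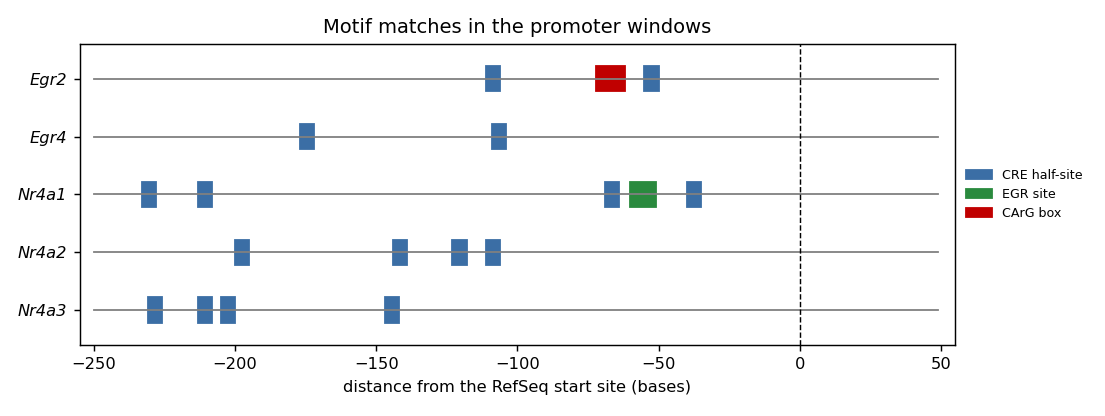
Motif matches (coloured boxes) in the printed promoter windows of 5 members, by distance in bases from the RefSeq start site (dashed line). The 3 Nr4a windows carry 4 half-sites each, Egr4 and Egr2 carry 2, and the CArG box is in Egr2.

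The libraries held between 16914012 and 18991235 counts each. Fabp7, the targeted gene, was at 26.3, 15.2 and 15.8 CPM (counts scaled to a library of 1000000, corrected by TMM for library composition) in shScr (libraries 1 to 3, the order used throughout) and at 5.56, 2.49 and 3.52 CPM in shFabp7. Its groups did not overlap, and 11.5% of all genes tested were likewise lower without overlap. The log2 fold change of Fabp7 (shFabp7 minus shScr) was -2.31 (SE 0.35), with an adjusted p of 0.0704 in edgeR and 3.32e-12 in DESeq2. The targeted gene itself thus did not pass the threshold used below in edgeR. A gene that did not pass there is therefore not shown to be unchanged. The cortical identity of the tissue was checked on 16 markers of cortical excitatory neurons. All 16 passed the filter on low counts, and their summed level was 4696 CPM in shScr library 1, 5940 to 6203 CPM in the other shScr libraries and 6704 to 7585 CPM in shFabp7. Markers of neighbouring regions were also present. Of 10 thalamic and hypothalamic markers 8 passed the filter, and 7 of the 8 had log2 fold changes below 0, with a median of -2.31. In edgeR 0 passed the threshold, and DESeq2 called 3 lower, against 1.9% of all genes it tested. They summed to 233, 137 and 118 CPM in shScr and to 103 to 129 CPM in shFabp7, highest in shScr library 1. Avp, a hypothalamic peptide gene named after its values were seen, was at 38.9, 4.89 and 0.491 CPM in shScr and at 0.214 to 0.837 CPM in shFabp7. Striatal markers summed to 576 to 1177 CPM in shScr and to 580 to 1598 CPM in shFabp7, highest in shScr library 1 and shFabp7 library 3. Expression of Xist against Y-linked genes gave a male pattern in shScr libraries 1 and 2 and shFabp7 library 1, and a female pattern in the other 3. In shFabp7 library 2 the female pattern came with 13.6 CPM over 4 Y-linked genes, against 1.47 to 1.92 CPM in the other female and 205 to 210 CPM in the male libraries. The groups therefore differed in sex composition, and shScr library 1 stood apart in its regional markers, and the part of either in the results was not tested beyond the fits given below.

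All 7 members passed the filter, and 6 of the 7 had a lower mean in shFabp7. Nr4a3, Egr2 and Egr4 were lower in every shFabp7 library than in any shScr library. Egr1, Nr4a1 and Nr4a2 had lower means with overlapping groups, and Egr3 had a slightly higher mean in shFabp7. By edgeR's quasi-likelihood test with Benjamini-Hochberg adjustment over 17185 genes, 0 of the 7 passed the adjusted threshold of 0.05, and 3 of the 7 had an unadjusted p under 0.05, all lower. DESeq2 called Nr4a3, Egr4 and Egr2 lower. Over all genes tested, edgeR called 0.0582% lower and DESeq2 1.9% lower, 8.32% had an unadjusted p under 0.05 on the lower side in edgeR, and 11.5% were lower without overlap. The median log2 fold change (shFabp7 minus shScr throughout) was -0.97 over the 7 members and -0.01 over all genes tested. Because these are bulk libraries, fewer cells of a type and less RNA per cell cannot be told apart.

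**Figure D2:**
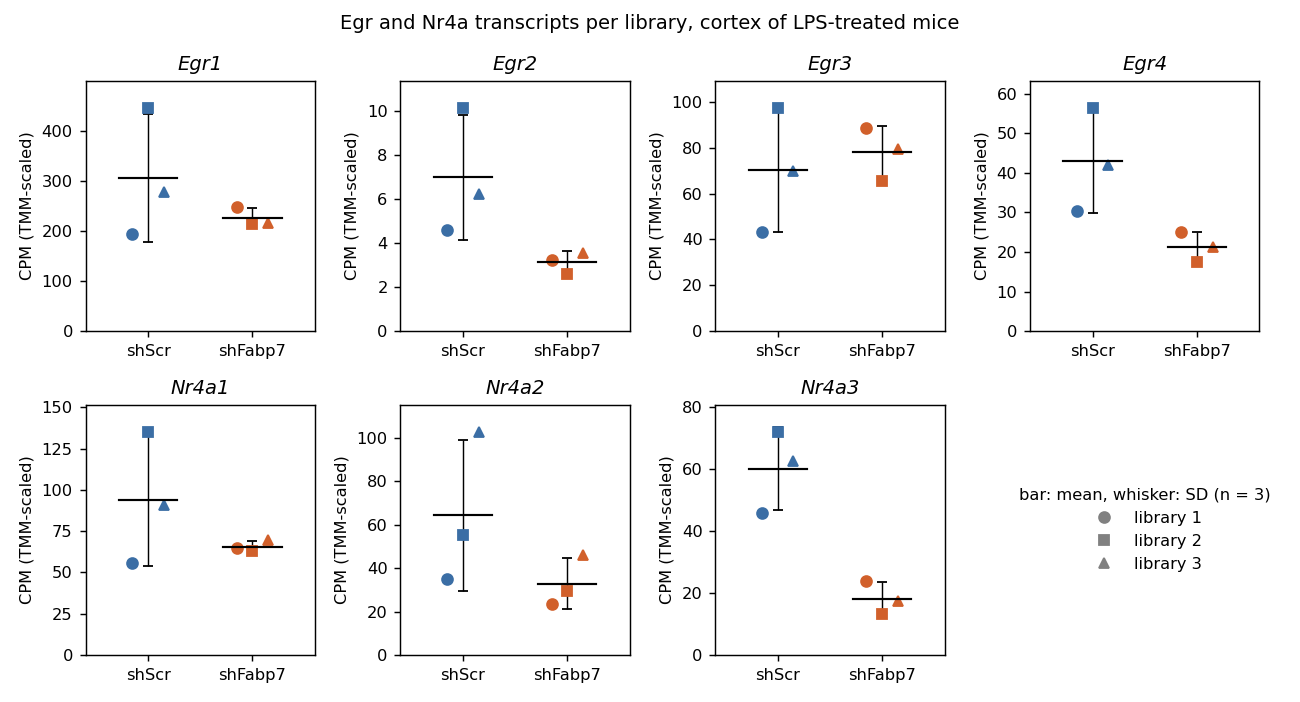
TMM-scaled CPM of the 7 genes in each library, with group mean (bar) and SD (whisker, n = 3). Nr4a3, Egr2 and Egr4 separate the groups, shScr library 1 is the lowest shScr library for every gene, and Nr4a2 alone peaks in shScr library 3.

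Nr4a3, which encodes the orphan receptor NOR-1, differed most. Its gene is on chromosome 4 from 48045153 to 48086447, plus strand (ENSMUSG00000028341). It was at 45.8, 72.0 and 62.4 CPM in shScr, and the shFabp7 libraries had 23.7, 13.1 and 17.2 CPM. The highest shFabp7 library thus lay well under the lowest shScr library. The shFabp7 mean of 18.0 ± 5.34 CPM (SD, n = 3) was 30.0% of the shScr mean of 60.1 ± 13.2 CPM (SD, n = 3). EdgeR put the log2 fold change at -1.74 (SE 0.27), with an adjusted p of 0.0839 in that test and 5.16e-13 in DESeq2. By exact permutation (two-sided) p was 0.1, which is the lowest value open to 3 against 3. Leaving out any 1 library gave values from -1.98 to -1.55. The difference was -1.27 in log2 CPM between the male libraries (2 against 1) and -2.05 between the female ones (1 against 2).

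Egr4, a family member that is induced strongly by neuronal activity, is encoded on chromosome 6 from 85511121 to 85513589, minus strand (ENSMUSG00000071341). It was at 30.4, 56.4 and 42.1 CPM in shScr and at 25.0, 17.6 and 21.2 CPM in shFabp7. The groups did not overlap, but shScr library 1 and shFabp7 library 1 lay close together. Means of 43.0 ± 13.1 and 21.3 ± 3.71 CPM (SD, n = 3 each) gave a log2 fold change of -1.02 (SE 0.25), with an adjusted p of 0.162 in edgeR and 0.000258 in DESeq2. Of all genes tested, 1.68% had a log2 fold change as low or lower.

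Egr2 (Krox20) lies on chromosome 10 from 67535475 to 67542188, plus strand (ENSMUSG00000037868), and was the least abundant member. The shScr libraries held 85, 191 and 114 reads of it and the shFabp7 libraries 54, 43 and 67, so its counting error is the largest of the 7. Its levels were 4.63, 10.2 and 6.22 CPM in shScr and 3.23, 2.62 and 3.58 CPM in shFabp7. The groups again did not overlap, with shScr library 1 nearest to the shFabp7 range. The log2 fold change was -1.15 (SE 0.29), with an adjusted p of 0.126 in edgeR and 0.0122 in DESeq2. Without shScr library 1, both Egr2 and Egr4 passed in edgeR (adjusted p = 0.0221 and 0.0383, log2 fold changes of -1.38 and -1.21).

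Egr1 (Zif268), the most studied member and a standard marker of neuronal activity, lies on chromosome 18 from 34859823 to 34864984, plus strand (ENSMUSG00000038418). It was at 193, 445 and 278 CPM in shScr and at 248, 214 and 215 CPM in shFabp7. The shScr libraries spread 2.31-fold and held both the highest and the lowest of the 6 values, while the shFabp7 libraries spread 1.16-fold. Group means of 305 ± 128 and 226 ± 19.8 CPM (SD, n = 3 each) corresponded to a log2 fold change of -0.44 (SE 0.33, adjusted p = 0.565 in edgeR). Without shScr library 2 the log2 fold change was -0.06.

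Nr4a1 (Nur77), encoded on chromosome 15 from 101266846 to 101274792, plus strand (ENSMUSG00000023034), had the same layout as Egr1. It was at 55.4, 135 and 90.8 CPM in shScr and at 64.5, 62.8 and 69.4 CPM in shFabp7. As for Egr1, shScr library 1 lay below all 3 shFabp7 libraries and shScr library 2 above all 3. The log2 fold change was -0.52 (SE 0.35, adjusted p = 0.517 in edgeR), and it was -0.15 without shScr library 2. Nr4a1 also marks patrolling monocytes. Of 10 markers of monocytes, neutrophils and lymphocytes, 1 passed the filter, and the 10 together summed to 13.4 to 14.7 CPM in shScr and 8.38 to 11.0 CPM in shFabp7. Most of that sum was Mrc1, the marker that passed, named after its values were seen. Mrc1 was at 11.0, 11.8 and 10.8 CPM in shScr and at 9.56, 6.99 and 6.35 CPM in shFabp7. Each of the others was under 1 CPM in every library, so the sum says little about monocytes.

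Egr3, on chromosome 14 from 70077445 to 70080157, plus strand (ENSMUSG00000033730), was the one member with a mean above the shScr mean. It was at 43.3, 97.4 and 69.7 CPM in shScr and at 88.8, 65.6 and 79.5 CPM in shFabp7. All shFabp7 values lay between shScr libraries 1 and 2. The log2 fold change was 0.15 (SE 0.33, adjusted p = 0.861 in edgeR), and its sign turned without shScr library 1 (-0.10).

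Nr4a2 (Nurr1), on chromosome 2 from 57106830 to 57124003, minus strand (ENSMUSG00000026826), followed a different order of libraries. It was at 35.0, 55.1 and 103 CPM in shScr and at 23.4, 29.3 and 45.9 CPM in shFabp7. It was highest in shScr library 3, where the other 6 members were highest in shScr library 2, and shFabp7 library 3 lay above shScr library 1. The log2 fold change was -0.97 (SE 0.51, adjusted p = 0.428 in edgeR), and it was -0.45 without shScr library 3. Markers of claustrum and layer 6b, where Nr4a2 is known to be high, summed to 273, 216 and 323 CPM in shScr and to 242, 234 and 281 CPM in shFabp7, so library 3 was the highest of each group for both. All 12 of them passed the filter, 9 had log2 fold changes below 0 and 0 passed the threshold. Hippocampal and dentate markers summed to 284, 167 and 309 CPM in shScr and to 169 to 188 CPM in shFabp7. Among those, C1ql2 of dentate granule cells was at 6.20, 5.90 and 17.4 CPM in shScr and 0.598 to 0.907 CPM in shFabp7. C1ql2 was picked because, of this list, it correlated best with the mean of the members (0.775 over 6 libraries). Of the 10 hippocampal markers 9 passed the filter, 6 of the 9 had log2 fold changes below 0 and 3 above, and 0 of the 10 were at 0 reads in all libraries. Without overlap, 2 of the 9 were lower and 1, Cdh24, was higher (log2 fold change of 0.52), against 11.5% and 11.4% of all genes tested. EdgeR called 0 of the 9, and DESeq2 called C1ql2 lower and Cdh24 higher. With the claustrum and layer 6b markers as a covariate, an alternative chosen after seeing the data, the log2 fold change of Nr4a2 was -0.82 (adjusted p = 0.598).

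**Figure D3:**
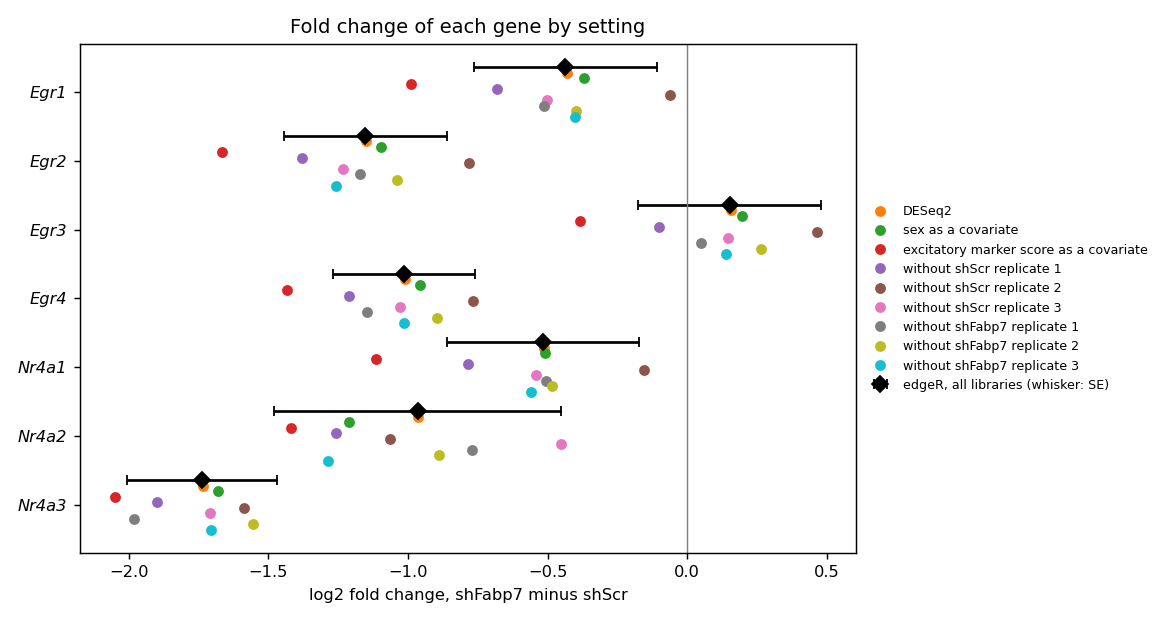
Log2 fold change of each gene (shFabp7 minus shScr) by edgeR with all libraries (black diamond, whisker SE) and under 9 other settings (coloured points). Nr4a3 stays between -2.05 and -1.55 in those drawn, whereas Egr3 lies on both sides of 0 and Egr1 reaches -0.06 without shScr replicate 2.

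For 6 of the 7 members the shScr libraries differed more among themselves than the shFabp7 libraries did, and shScr library 1 fell among or below the shFabp7 values for several. In all 7 members shScr library 1 was the lowest of the shScr libraries, and in 3 of them (Egr1, Egr3 and Nr4a1) it was below all shFabp7 libraries. In all 7 members shScr library 2 was above every shFabp7 library, and in 6 of the 7 so was shScr library 3, Egr3 being the exception. Nr4a3 was the member that varied less in shScr, with a ratio of highest to lowest library of 1.57 against 1.81 in shFabp7. The excitatory marker sum was also lowest in shScr library 1, and the thalamic and hypothalamic sum was highest there. Without that library Nr4a3 had a log2 fold change of -1.90, Egr1 -0.68, Nr4a1 -0.78 and Nr4a2 -1.26. With the mean log2 CPM of the excitatory markers as a covariate in edgeR, 4 of the 7 passed, and 43 genes did over the whole table. Egr1 had -0.99 (adjusted p = 0.0393), Nr4a1 -1.11 (0.000403), Egr4 -1.43 (0.0185) and Egr2 -1.67 (0.0152). Nr4a3 did not pass in that fit (-2.05, adjusted p = 0.217), nor did Nr4a2 (-1.42, 0.759) or Egr3 (-0.38, 0.701). The covariate itself separated the groups, at 6.25 to 6.92 in shScr and 6.97 to 7.03 in shFabp7, so it cannot be told apart from the shRNA in full. With sex as a covariate 0 of the 7 passed, and 7 genes did over the whole table. Astrocyte markers, for the cell type the vector addresses, summed to 4012 to 4514 CPM in shScr and 4249 to 4634 CPM in shFabp7, with 5 of 10 log2 fold changes below 0. Microglia markers summed to 510 to 538 CPM in shScr and 443 to 491 CPM in shFabp7, with 9 of 10 below 0. In both lists 0 of 10 passed the threshold in edgeR and none was at 0 reads. DESeq2 called 1 astrocyte and 3 microglia markers lower, against 1.9% of all genes it tested. Without overlap, 6 of 10 microglia markers and 4 of 10 astrocyte markers were lower, and 0 microglia and 3 astrocyte markers were higher. Of all genes tested, 11.5% were lower and 11.4% higher without overlap. Gfap, whose promoter drives the vector and which was named after its values were seen, was at 249, 240 and 312 CPM in shScr and at 134, 161 and 168 CPM in shFabp7. Its log2 fold change was -0.79 (adjusted p = 0.0597 in edgeR and 1.97e-07 in DESeq2), a difference that the astrocyte sum, made up mostly of Slc1a2, does not show. The part of either cell type in the members' values was not tested. A test of whether the shRNA difference itself depended on sex, with 2 residual degrees of freedom, called 0 of 17185 genes (595 at an unadjusted p under 0.05), and adjusted p-values of the members were 0.997 to 0.999.

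All members but Nr4a2 were lowest in library 1 and highest in library 2 of the shScr group. Each of the other 6 genes was therefore set against Egr1, the member with the most reads, in the same library, which removes the scaling of the library. Nr4a3, Egr2 and Egr4 had lower ratios to Egr1 in every shFabp7 library than in any shScr library, and Egr3 had a higher ratio in every one. Nr4a1 and Nr4a2 had ratios that overlapped. These patterns were chosen with the levels known and describe unequal differences only.

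The log2 ratio of Nr4a3 to Egr1 was -2.08, -2.63 and -2.16 in shScr and -3.39, -4.03 and -3.64 in shFabp7, a difference of -1.40. The ratio of Egr2 to Egr1 was -5.38, -5.45 and -5.48 in shScr, within 0.10 of each other although the level of each gene varied more than 2-fold, and -6.27, -6.35 and -5.91 in shFabp7. That of Egr4 was -2.67, -2.98 and -2.73 in shScr and -3.31, -3.60 and -3.34 in shFabp7. For all 3 genes the difference between the group means exceeded the SD of either group.

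For Egr3 the log2 ratio to Egr1 was -2.16, -2.19 and -2.00 in shScr and -1.48, -1.70 and -1.43 in shFabp7, a difference of 0.57 in the opposite direction. For Nr4a1 it was -1.80, -1.72 and -1.62 in shScr and -1.95, -1.77 and -1.63 in shFabp7, a difference of -0.07 with SDs of 0.09 and 0.16. That difference was within the spread of either group. By exact two-sided permutation, the 4 ratios whose groups did not overlap each had p = 0.1, the smallest possible with 3 against 3, and 0.15 after Benjamini-Hochberg adjustment over the 6 ratios. Of the 17184 other genes tested, 0.314% had a ratio to Egr1 that was lower without overlap and 9.82% one that was higher without overlap. The level of Egr1 itself spread 2.31-fold inside the shScr group, which widens the ratio of any gene that does not vary with it. Among 30 other immediate-early genes, 4 had lower ratios without overlap (Fos, Fosl2, Npas4 and Atf3) and 6 higher ones (Arc, Ier3, Ier5, Dusp6, Homer1 and Trib1), all named after their values were seen. All ratios share Egr1 as their denominator.

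**Figure D4:**
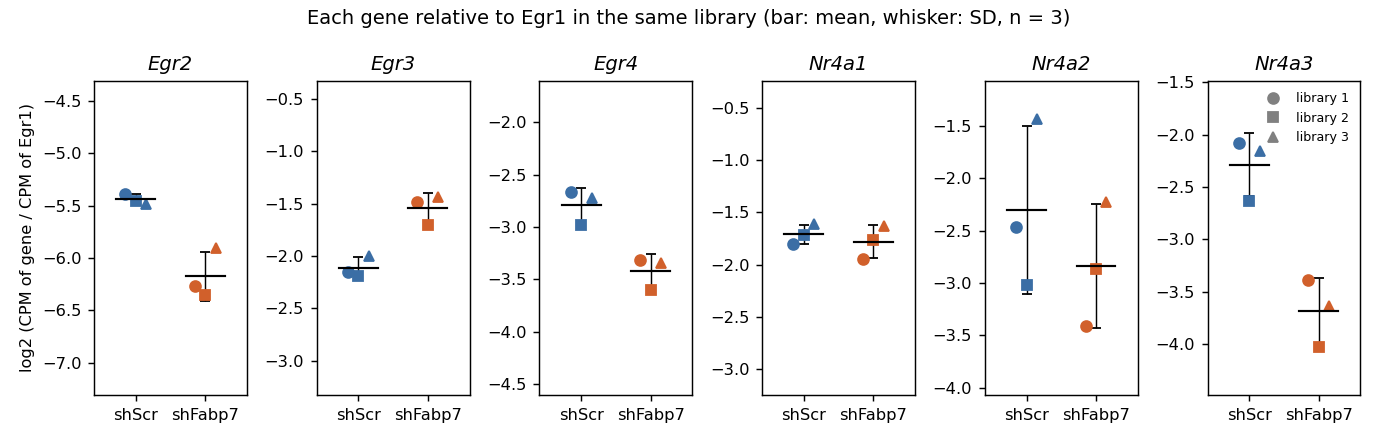
Log2 ratio of the CPM of each gene to that of Egr1 in the same library, with group mean (bar) and SD (whisker, n = 3), every panel spanning 3 log2 units. Egr2, Egr4 and Nr4a3 sit lower in shFabp7 and Egr3 higher, while Nr4a1 overlaps.

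Levels of different genes were compared per kilobase of the gene model in the files (TMM-scaled CPM per kb). In shScr the order was Egr1 (68.1 ± 28.6), Egr3 (49.5 ± 19.1), Nr4a1 (37.9 ± 16.2), Egr4 (20.0 ± 6.08), Nr4a2 (15.9 ± 8.61), Nr4a3 (10.03 ± 2.21) and Egr2 (2.06 ± 0.838; SD, n = 3). The ranges of neighbours in that order overlapped except between Nr4a3 and Egr2. In shFabp7, Egr3 (55.1 ± 8.27) and Egr1 (50.3 ± 4.41) led with overlapping ranges, and Egr3 was the higher of the pair in 2 of 3 libraries. Nr4a1 (26.5 ± 1.39), Egr4 (9.89 ± 1.72), Nr4a2 (8.10 ± 2.88), Nr4a3 (3.01 ± 0.892) and Egr2 (0.924 ± 0.143) followed, with overlap between Egr4 and Nr4a2 alone.

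As a share of the summed level of the 7 genes per kilobase, Egr3 took 23.9%, 24.8% and 24.0% in shScr, against 37.7%, 33.6% and 35.7% in shFabp7. Nr4a3 took 5.99%, 4.33% and 5.08% in shScr and 2.37%, 1.59% and 1.83% in shFabp7. Egr4 took 9.47% to 11.1% in shScr and 5.94% to 6.99% in shFabp7, and Egr2 0.892% to 1.08% and 0.559% to 0.669%. The shares of these 4 genes did not overlap between the groups, whereas those of Egr1, Nr4a1 and Nr4a2 did. Shares of a library add up to a fixed total, so a lower share of some genes raises that of the others. The level of Egr3 itself overlapped between the groups. These shares use the same values as the ratios to Egr1 and are not separate evidence. Egr1 took 30.2% to 35.8% in shScr and 30.5% to 34.6% in shFabp7. The sum itself was 128, 278 and 205 CPM per kb in shScr and 166, 138 and 157 in shFabp7, so its groups overlapped. The lengths used run from 1416 bp for Egr3 to 5987 bp for Nr4a3, and a gene model that is too short or too long would shift that gene's level per kb by 1 factor in all libraries and would move the shares of all 7.

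The genes around these factors were taken from 5 lists. Of 26 upstream regulators (kinases and transcription factors such as CREB, SRF, MEF2 and their partners), 12 had log2 fold changes below 0 and 14 above, with a median of 0.0009 and 0 past the threshold in edgeR. Without overlap, 7 of the 26 were higher and 2 lower, against 11.4% and 11.5% of all genes tested. DESeq2 called 2 of the 26 higher and 0 lower, where it called 703 of 16538 genes in either direction. The 2 were Camk4 (edgeR log2 fold change of 0.40, adjusted p = 0.00452 in DESeq2) and Mrtfb (0.26 and 0.045), named after their values were seen. Mapk3, a kinase among the most abundant of the list per length, had -0.29. Of the corepressors and partners, 0 of 5 passed. Nab2, an EGR corepressor and itself an EGR target, was at 40.8, 44.5 and 47.1 CPM in shScr and 30.0, 34.7 and 32.8 CPM in shFabp7, with groups that did not overlap. Its log2 fold change was -0.44 (SE 0.09), with an adjusted p of 0.0698 in edgeR and 0.00692 in DESeq2. Rxrb, a retinoid X receptor, had 0.23 with an adjusted p of 0.119 in edgeR.

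Of 30 other immediate-early genes, 25 had log2 fold changes below 0, with a median of -0.41, and 2 fell and 0 rose in edgeR. EdgeR called 0.0582% of all genes tested lower. Fos, the AP-1 subunit, was at 22.1, 34.7 and 24.0 CPM in shScr and 10.5, 9.18 and 9.66 CPM in shFabp7, and Sik1, a cAMP-induced kinase, at 24.2, 21.8 and 18.9 CPM and 13.0, 11.5 and 12.9 CPM. Their log2 fold changes of -1.46 and -0.79 had adjusted p-values of 0.0382 and 0.0423. Without any 1 of the shFabp7 libraries neither passed (adjusted p of 0.0872 to 0.31 for Fos and 0.0972 to 0.323 for Sik1), and Fos also did not pass without shScr library 3 (0.0516). In this list 12 of 30 were lower without overlap and 1 was higher, against 11.5% and 11.4% of all genes tested. DESeq2 called 10 lower and 0 higher, where 1.9% of all genes it tested were called lower.

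Of 10 genes reported as EGR targets, 1 rose and 0 fell in edgeR, which called 0.116% of all genes tested in either direction. DESeq2 called 3 of the 10 lower (Nab2, Ngfr and Gadd45b) and 1 higher (Htr2a), where it called 703 of 16538 genes in either direction. Without overlap, 3 of the 10 were lower and 4 higher, against 11.5% and 11.4% of all genes tested. Htr2a, a serotonin receptor gene reported as an EGR3 target, was at 15.9, 12.6 and 12.1 CPM in shScr and 24.4, 26.3 and 24.3 CPM in shFabp7. Its log2 fold change was 0.89 (SE 0.12, adjusted p = 0.0382). The call was lost without shScr library 3 (adjusted p = 0.0741) or any 1 of the shFabp7 libraries (0.0858 to 0.31). Its groups did not overlap, and it was on this list with its difference already known. The median of the list was 0.01, with 5 members below 0 and 5 above. Of 7 reported NR4A targets, 6 passed the filter, 5 of these had values below 0 and 0 passed the threshold. The most abundant per length were Vip, a peptide of interneurons, at 0.29, and Bdnf, a neurotrophin, at -0.22.

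**Figure D5:**
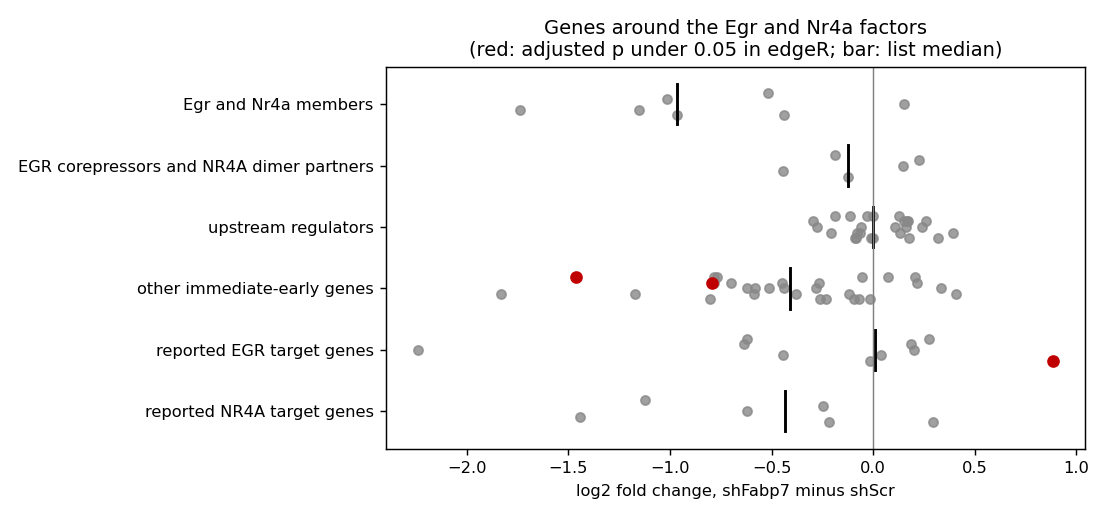
Log2 fold changes (shFabp7 minus shScr) of the tested genes of each list, one point per gene, with the list median as a bar and genes past an adjusted p of 0.05 in red. Fos and Sik1 are the red points left of 0 and Htr2a the one to the right, and upstream regulators run from -0.29 (Mapk3) to 0.40 (Camk4).

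The genes whose levels over the 6 libraries were most like the mean profile of the 7 members (Pearson correlation of log2 CPM, among genes with a mean of at least 5 CPM, no test) were led by Gbp7, Tada1, Pir, Kcnq1ot1 and Junb, with correlations from 0.982 to 0.989. That profile was at -0.19, 0.81 and 0.50 (log2, centred on 0) in shScr and at -0.29, -0.57 and -0.26 in shFabp7. Junb, an AP-1 subunit and an immediate-early gene itself, was at 43.2, 68.6 and 65.7 CPM in shScr and 37.1, 31.0 and 36.1 CPM in shFabp7. Of the 8 genes most like the profile 0 passed the threshold in edgeR. The points of each correlation share their libraries and their groups.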

How the data were processed

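The 7 members and all gene lists were chosen with earlier results of these data known. Per the file headers, the authors' files give raw counts of reads for each gene in featureCounts layout, without normalization. Trimmomatic 0.36, STAR 2.5.2b, Subread 1.5.2, DESeq2 and GRCm39 are listed in the submitters' processing notes without role or order. Positions in the files were not those of GRCm39: 91.4% of 48970 genes had identical chromosome, start and end in GENCODE M21, so coordinates are given as GRCm38. The strand setting was not given in the sources used here. No other gene in the files overlapped a member. Library totals were 16914012 to 18991235.

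Groups and replicate numbers came from the sample titles. The filterByExpr filter kept 17185 genes, TMM factors scaled the libraries, and edgeR 4.0.16 (quasi-likelihood, robust, group alone, R 4.3.3) tested them two-sided, with Benjamini-Hochberg adjustment over all genes and a threshold of 0.05. SEs were taken as the absolute log2 fold change over the root of F. Log2 CPM used a prior count of 2. Named genes were Fabp7, the 7 members, list members past the threshold (else the 2 most abundant per length), and the 8 genes most like the members, of which the first 5 are printed. Some genes that the rule names are not reported here. Alternatives were DESeq2 1.42.0, RLE factors, no filter on low counts, at least 1 CPM in 3 samples, the replicate number as a block, sex or the excitatory marker score as a covariate, a threshold of 0.1, each library left out, and, added after seeing the data, the claustrum and layer 6b marker score as a covariate. The scripts were tested on simulated counts.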

Additional observations from a re-analysis of the deposited data

How the results depend on the processing

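Depth limits Egr2 most, with 43 to 191 reads per library, and 3 libraries per group limit all tests. Over 15 alternatives to each of 7 members (105 values), 91 kept their direction and their side of the threshold, 12 came to pass it, and 2 turned sign, both Egr3: -0.38 with the excitatory marker score and -0.10 without shScr replicate 1 (range with 1 library left out, -0.10 to 0.47). The number of members called, 0 in edgeR with all libraries, was 3 in DESeq2, 4 with the excitatory marker score, 1 at a threshold of 0.1 and 1 with no filter, and 0 to 2 with 1 library left out (2 without shScr replicate 1). The median log2 fold change of the members, -0.97, was -1.42 with the excitatory marker score and ranged from -1.21 to -0.54 with 1 library left out (-0.54 without shScr replicate 3). The number of genes called over the whole table, 20, was 703 in DESeq2, 1617 with no filter, 292 at a threshold of 0.1, 7 with sex, 43 with the excitatory marker score and 33 with the claustrum and layer 6b score. It ranged from 0 (without shFabp7 replicate 2 or 3) to 900 (without shScr replicate 2) with 1 library left out, and was 10 without shFabp7 replicate 1 and 182 without shScr replicate 1. The causes were not tested. The replicate numbers were not shown to pair the libraries: same-numbered libraries had correlations of their deviations of 0.08, 0.15 and 0.06. With the replicate block 629 genes and 1 member, Nr4a2 (log2 fold change of -0.90, adjusted p = 0.00868), were called, and 4 of 6 libraries correlated best with the library of their own number.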
